A study of Mus musculus with 12 samples.

Results

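Adipocytes and stromal vascular cells of inguinal fat were compared in 6 of the 12 libraries of a study of mouse adipose tissue, 3 libraries of IAT adipocytes and 3 of IAT stromal vascular cells (SVCs), chosen by their sample labels alone. All samples came from male C57BL/6J mice, an inbred strain, that were 8 weeks old when a high-fat diet began and received it for 10 weeks, so no lean animal enters any comparison. Inguinal adipose tissue (IAT) is a subcutaneous depot, and the other depot of the series, epididymal adipose tissue (EAT), is a visceral one. Each tissue had been digested with collagenase I and parted into adipocytes and SVCs. The labels do not say whether tissue of several animals was pooled, nor whether each replicate is an animal of its own. The p-values below therefore reflect how much these particular samples vary, and that variation may be technical.

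White adipocytes store triglyceride in a single large droplet, release fatty acids and glycerol when the body fasts, and secrete hormones such as adiponectin and leptin. The stromal vascular fraction holds what remains once the floating adipocytes are taken off: precursor cells and fibroblasts, endothelial and mural cells of the vessels, and macrophages and other immune cells. Collagenase frees the cells from a collagen matrix, and fat cells are then parted from the rest by their buoyancy, so each fraction is defined by how it behaves in a centrifuge and can carry some cells of the other.

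The 6 libraries held 21076594 to 23882347 expected counts each. Gene counts are given here as CPM, counts scaled to library sizes that the TMM method adjusted within the depot, and levels of different genes are compared as TPM, which corrects for length. The files name genes by UCSC transcript identifier and pair none with a symbol, so adipocyte, endothelial and immune markers could not be looked up and the fractions rest on their labels. Libraries of the same fraction correlated across genes at r of 0.991 to 0.995, and libraries of different fractions at 0.812 to 0.832. These coefficients run over genes, which do not replicate one another, and only describe the libraries. No pair of replicates agreed within counting noise, with a chi-square per degree of freedom of at least 13.4. Genes that stood more than 4-fold above both other libraries of their fraction, at 10 CPM or more, numbered 2 in IAT adipocyte replicate 2, 1 in IAT SVC replicate 1 and 0 in each of the other 4 libraries.

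The adipocyte fraction drew its RNA from fewer genes. The number of genes with at least 1 TPM was 12763, 12847 and 12740 in IAT adipocytes and 14072, 13930 and 13953 in IAT SVCs. Every SVC library thus lay above every adipocyte library, with means of 12783 ± 56.3 and 13985 ± 76.2 (SD, n = 3). The most abundant genes that together gave 50% of a library's counts numbered 400, 462 and 411 in adipocytes and 707, 698 and 685 in SVCs. In each measure the groups did not overlap, and an exact two-sided permutation test of 3 against 3 libraries gave p = 0.1, the smallest it can give. Bulk RNA cannot tell fewer cells of a type from less RNA per cell.

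Most genes differed between the fractions. Of 15162 genes tested, 5976 were higher in IAT adipocytes (39.4%) and 5936 higher in IAT SVCs (39.2%) by edgeR's quasi-likelihood test at a Benjamini-Hochberg adjusted p below 0.05. In either direction 78.6% of the genes passed, and 3250 did not. Libraries of the fractions did not overlap for 12319 genes (81.2%). Many called differences were small: 2299 of the called genes (19.3%) were under 1.5-fold apart and 4953 (41.6%) under 2-fold. The median standard error of a log2 difference was 0.13, and the smallest difference that passed was 0.18. The even balance of the 2 directions rests on the scaling. TMM centred the genes near 0, with a median log2 difference of -0.01, so the directions are relative to the typical gene of the same tissue. Scaled by library size alone, the median moved to -0.42, with 4283 calls on the adipocyte side and 8039 on the SVC side, which put 34.8% of calls on the adipocyte side in place of 50.2%. Under that scaling 26 genes called higher in adipocytes were called higher in SVCs.

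Under TMM, differences of 8-fold or more were more numerous on the adipocyte side. At least 4-fold apart were 1435 genes higher in adipocytes (9.46% of genes tested) and 1731 higher in SVCs (11.4%), so at that size SVC genes were in the majority. The order turned at 8-fold, with 684 adipocyte genes and 579 SVC genes. At least 16-fold apart were 419 adipocyte genes and 179 SVC genes, and at least 64-fold apart were 163 and 7. The 100th largest difference stood at 7.48 on the log2 scale among adipocyte genes and had a size of 4.43 among SVC genes. Differences of 512-fold or more were called for 17 adipocyte genes and for 0 SVC genes, by edgeR. These sizes are those under TMM. Scaled by library size alone, 1029 adipocyte genes and 2422 SVC genes were at least 4-fold apart. The order at 8-fold and above was not counted under that scaling, so it may not hold there.

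**Figure D1:**
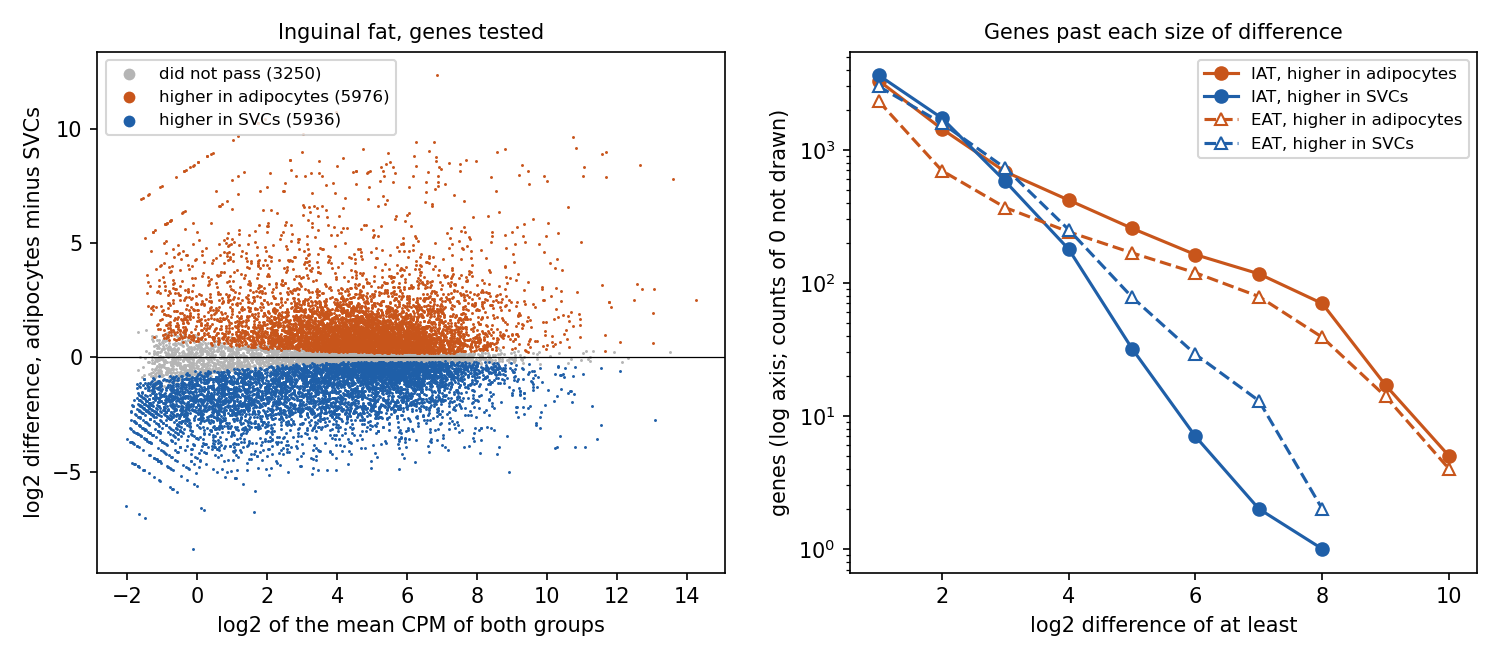
Left, the log2 difference of each of the 15162 genes tested (adipocytes minus SVCs, vertical axis) against its mean level (log2 CPM, horizontal axis), with called genes in orange (5976 higher in adipocytes) and blue (5936 higher in SVCs). Right, the number of called genes (log axis) that reach each size of log2 difference in IAT (filled) and EAT (open, dashed). Under TMM, the orange line lies above the blue one from a log2 difference of 3 upward in IAT.

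The counts were also taken over genes with at least 10 CPM in the higher fraction, a limit that a gene can pass through the fraction where it is high, so they describe those genes and support nothing further. Among 10198 such genes, 1028 were at least 4-fold higher in adipocytes and 701 at least 4-fold higher in SVCs, so that the SVC majority at this size turned into an adipocyte majority. Of them, 118 adipocyte genes and 0 SVC genes were at least 64-fold apart. Read as what remains in the lower fraction, the SVC level of the 1028 adipocyte genes had a median of 14.0% of their adipocyte level, and 98 of them (9.53%) stood below 1%. The adipocyte level of the 701 SVC genes had a median of 17.9% of their SVC level, and 0 of them stood below 1%. The 10% of genes with the smallest remainders lay below 1.1% for adipocyte genes and below 7.05% for SVC genes. A floor of 3 counts corresponds to 0.147 to 0.160 CPM in the adipocyte libraries and 0.111 to 0.118 CPM in the SVC libraries, so small remainders were harder to detect in adipocytes.

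Those gene lists came from the libraries they describe, so the remainders were also measured for lists drawn from EAT, which shares no library with IAT. The limit of 10 CPM in the higher IAT fraction still applied, and a gene can pass it through the fraction where it is high. The IAT libraries thus still took part in the choice, and these remainders only describe the genes kept. The lists were genes at least 4-fold apart in EAT without EAT adipocyte replicate 2, a library whose RNA lay in shorter genes, with a mean effective length, weighted by TPM, of 1339 bases against 1830 and 1813 bases in its replicates. For 414 EAT adipocyte genes that passed this limit, of 571 tested in IAT, the median remainder in the IAT SVC libraries was 4.27%, 4.15% and 4.12%. For 580 EAT SVC genes that passed it, of 1447 tested in IAT, the median remainder in the IAT adipocyte libraries was 19.6%, 17.1% and 15.1%. Every adipocyte library thus kept a larger median share of the SVC genes than any SVC library kept of the adipocyte genes. The lists were not matched for size of difference, with median log2 differences of 3.37 and -2.78 in EAT without adipocyte replicate 2. Their remainders are therefore not compared at equal sizes of difference. Below 1% stood 98 of the 414 adipocyte genes (23.7%) and 0 of the 580 SVC genes. Whether the remainder of SVC genes came from adipocytes or from other cells in their fraction was not tested.

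Genes seen in 1 fraction only were few, and nearly all were adipocyte genes. A level of 1 CPM or more in each adipocyte library, beside 0 counts in the SVC libraries, was found for 15 genes, with mean levels of 1.32 to 7.72 CPM and 78 to 454 counts over the 3 libraries. The reverse was found for 1 gene, with 142 counts over the 3 SVC libraries and a mean of 1.83 CPM. Allowing 1 count in each library of the other fraction gave 28 and 7 genes. The 15 became 24 without IAT SVC replicate 2, and the single SVC gene became 5 without IAT adipocyte replicate 1 and 3 without replicate 2. Each of these changes loosened the rule, so the counts could only stay or rise. In EAT, 9 of the 15 were also called higher in adipocytes, where 26.7% of all genes tested were. No count in any EAT SVC library was seen for 9 of the 15, a number with no share over all genes beside it.

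The amount of RNA that went into these genes was measured with the EAT lists of all 6 EAT libraries, 697 adipocyte genes and 1584 SVC genes at least 4-fold apart. The 697 adipocyte genes took 18.4%, 19.0% and 18.9% of the expected counts in IAT adipocytes and 1.31%, 1.44% and 1.34% in IAT SVCs. The 1584 SVC genes took 12.8%, 12.5% and 14.2% in IAT SVCs and 1.85%, 1.76% and 1.59% in IAT adipocytes. The means were 18.8% ± 0.292 and 1.36% ± 0.0690 for the adipocyte list, and 13.2% ± 0.920 and 1.73% ± 0.133 for the SVC list (SD, n = 3). The fractions did not overlap for either list, with an exact permutation p = 0.1, the smallest possible. The adipocyte list, with fewer genes, thus held the larger share of its own fraction's RNA. Without EAT adipocyte replicate 2 the adipocyte list had 590 genes and took 16.7% in adipocytes and 0.788% in SVCs, a fall of the latter by over 1.5 times.

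**Figure D2:**
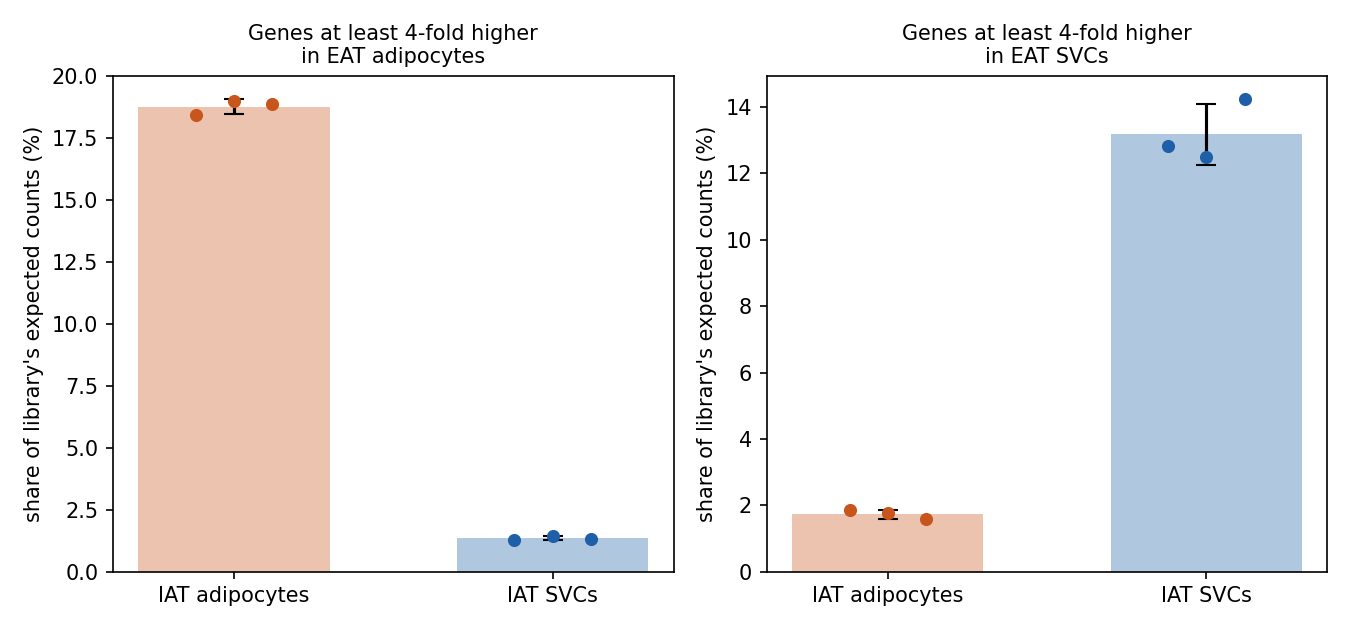
Share of each library's expected counts (percent, vertical axis) in genes at least 4-fold higher in EAT adipocytes (left) and in EAT SVCs (right), for the 3 IAT adipocyte libraries (orange) and the 3 IAT SVC libraries (blue). Points are libraries, bars are means and whiskers are the SD: the adipocyte list takes 18.8% of adipocyte counts and 1.36% of SVC counts.

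Genes on the 2 sides differed in level and length. The median level over the 6 libraries was 17.9 TPM for genes at least 4-fold higher in adipocytes (quartiles 4.09 and 67.9), 2.98 TPM for those at least 4-fold higher in SVCs (0.916 and 12.7), and 14.3 TPM for all genes tested. With the genes parted by level into 10 equal groups, 30.9% of the least abundant group were at least 4-fold higher in SVCs and 8.50% were at least 4-fold higher in adipocytes. Among the most abundant group the order was reversed, with 6.39% and 17.9%. SVC genes were thus mostly genes of low level over the 6 libraries, and adipocyte genes were most frequent among the most abundant. The filter before testing could keep a gene through 1 fraction alone, so genes of low mean level may have entered where they were high. These shares therefore describe the genes kept and support nothing further.

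Length went the same way as the side of the difference. Genes higher in adipocytes had a median length of 2299 bases and those higher in SVCs 3058 bases, against 2675 bases for all tested. Of the shortest 10% of genes, with a median of 828 bases, 55.7% were higher in adipocytes and 26.9% higher in SVCs. Of the longest 10%, with a median of 6846 bases, 25.3% and 54.4% were. The median log2 difference fell from 0.63 in the shortest 10% to -0.39 in the longest. Slopes between replicates were smaller. Set against its 2 replicates, IAT SVC replicate 1 went from -0.08 in the shortest to 0.07 in the longest group and IAT SVC replicate 2 from 0.05 to -0.06, and the adipocyte libraries stayed between -0.03 and 0.03. The mean fragment length implied by the deposited effective lengths also moved with the fraction, at 169, 160 and 168 bases in adipocytes and 178, 179 and 175 bases in SVCs. Its part in the length slope was not tested. Genes with 6 or more annotated transcripts were less often called at least 4-fold apart, at 5.85% and 9.23%, than genes with 1 transcript, at 12.3% and 13.1%, a description with no test.

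**Figure D3:**
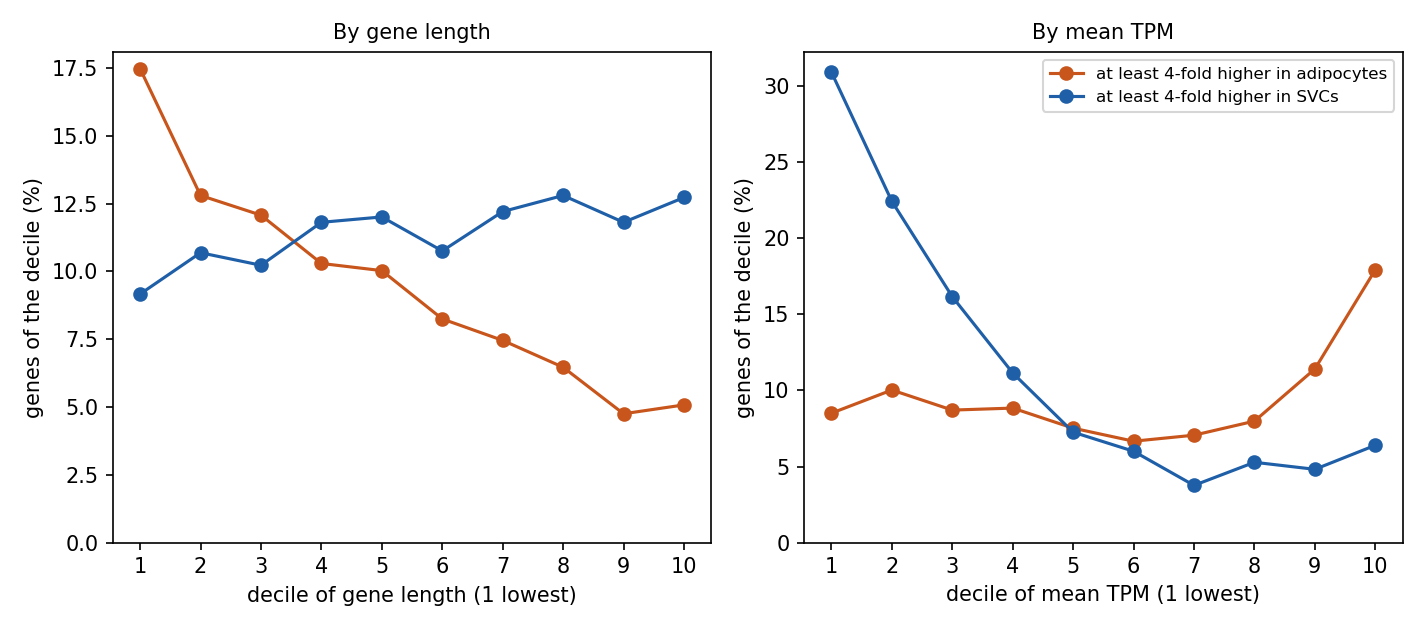
Share of genes (percent, vertical axis) at least 4-fold higher in IAT adipocytes (orange) and IAT SVCs (blue) in each of 10 equal groups of the genes tested, ordered by gene length (left) and by mean TPM over the 6 libraries (right). The orange line falls from the shortest to the longest genes, from 17.5% to 5.08%, and the blue line is highest, at 30.9%, in the least abundant group.

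The files also record, per library, the mean length of a gene's transcripts weighted by their estimated abundance, so a change of this value means that the estimated mix of a gene's transcripts differed. Among 7587 genes with several transcripts and at least 50 counts in every IAT library, 257 had longer transcripts in adipocytes and 393 had longer ones in SVCs (limma, adjusted p below 0.05, together 8.57% of those tested). Most shifts were small, with medians of 3.12% and -3.88%, and the largest were 1.89-fold and 1.82-fold. Lengths at least 1.1-fold apart were found for 36 genes longer in adipocytes and 105 longer in SVCs. With the replicate number as a block, which leaves fewer degrees of freedom, 25 and 26 genes passed, and 8 and 14 were at least 1.1-fold apart. Leaving out any 1 of the 6 libraries brought the counts of all shifts down to between 77 and 166 and between 141 and 197. The calls therefore rest on having all 6 libraries and no block. With effective length in place of length, 327 genes were longer in adipocytes and 232 in SVCs, so which side had more genes depends on that choice.

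The direction of these shifts was the same in EAT for most of the genes. In EAT without adipocyte replicate 2, the library with the shorter effective length, 232 of 255 genes with longer transcripts in IAT adipocytes (91.0%) were also longer in EAT adipocytes. Of 390 genes with longer transcripts in IAT SVCs, 376 (96.4%) were also longer in EAT SVCs. Among all genes compared, 49.6% were longer in EAT adipocytes. With all 6 EAT libraries those shares were 78.7%, 97.2% and 39.3%. Few shifts passed in EAT on their own: 8 of the 255 and 16 of the 390 were called the same way, where 0.22% and 0.336% of all genes tested there were. The median EAT shifts were smaller, at 0.02 against 0.04 and -0.03 against -0.06 on the log2 scale, for lists that were chosen in IAT. Of the 650 genes with a shifted length, 356 (54.8%) were called higher in adipocytes and 143 (22.0%) higher in SVCs, against 43.1% and 34.5% of all genes tested for length. In either direction 76.8% and 77.6% were called for level. These shares are a description with no test. An offset for each gene's effective length in each library gave 5920 and 5883 genes, with 5857 and 5820 of them also called the same way without the offset.

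The fraction differences of IAT were also present in EAT. Of 1341 genes at least 4-fold higher in IAT adipocytes and tested in EAT, 1196 (89.2%) were called higher in EAT adipocytes and 13 were called lower. Of 1582 genes at least 4-fold higher in IAT SVCs, 1430 (90.4%) were called higher in EAT SVCs and 1 was called lower. Over all genes tested in EAT, 26.7% were higher in adipocytes and 25.9% in SVCs. These 2 fits share no library, but the labels do not say whether both depots came from the same animals. Without EAT adipocyte replicate 2 the same way were 1224 of 1363 adipocyte genes (89.8%, against 33.2% of all genes tested) and 1524 of 1638 SVC genes (93.0%, against 33.4%). With all EAT libraries, the median log2 difference of the adipocyte genes was 2.89 in IAT and 1.97 in EAT, and that of the SVC genes was -2.57 and -2.46.

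**Figure D4:**
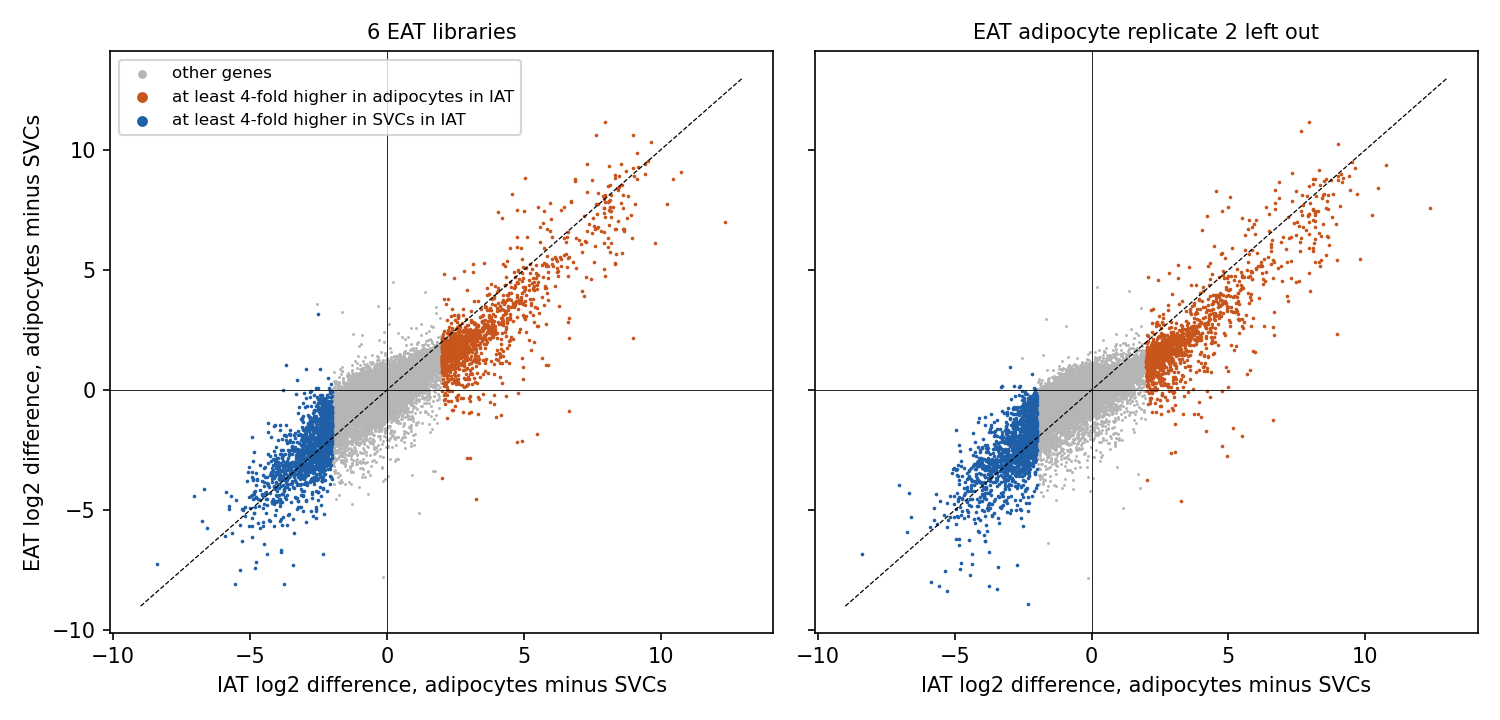
Log2 difference between adipocytes and SVCs of each gene in EAT (vertical axis) against IAT (horizontal axis), with all 6 EAT libraries (left) and without EAT adipocyte replicate 2 (right). Orange and blue points are genes at least 4-fold apart in IAT, and the dashed line marks equal differences: most orange points lie below the line, and the blue points lie on either side of it.

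Since genes picked in IAT favour larger values there, the depots were also compared for genes picked in EAT. Of 681 genes at least 4-fold higher in EAT adipocytes and tested in IAT, 674 (99.0%) were called higher in IAT adipocytes. Over all genes tested in IAT, 39.4% were higher in adipocytes and 39.2% in SVCs. The median log2 difference of the 681 genes was 3.10 in EAT and 3.96 in IAT, and 527 of them (77.4%) were further apart in IAT although the choice favoured EAT. For 1375 genes at least 4-fold higher in EAT SVCs, the medians were -2.84 and -2.52, 33.9% were further apart in IAT, and 95.3% were called the same way. The depot by fraction interaction tests the difference of the differences in 1 fit of all 12 libraries, and passed for 2867 of 15813 genes (18.1%, edgeR). Of the 697 EAT adipocyte genes, 140 were further apart in IAT and 22 further apart in EAT by that test. Of the 1584 EAT SVC genes, 37 were further apart in IAT and 156 in EAT, a direction that the choice in EAT favours. Over all genes the interaction was more positive in IAT for 1227 and more negative for 1640. With DESeq2's size factors these were 1528 and 1311, so that the balance turned, while the adipocyte list kept its side with 159 and 17. Without EAT adipocyte replicate 2, 2606 genes were more positive and 3270 more negative, and the adipocyte list of 590 genes had 249 further apart in IAT and 28 in EAT. Without IAT adipocyte replicate 1 or 2, EAT SVC replicate 1 or IAT SVC replicate 3, the 1640 became 1071, 1086, 1086 and 1092.

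Among called genes of at least 10 CPM in the higher fraction whose libraries did not overlap, a gene was singled out in each direction for the largest difference and for the highest level. The largest difference on the adipocyte side belonged to uc008hps.1, a gene of 604 bases with 1 transcript. It had 49.6, 594 and 51.3 CPM in IAT adipocyte replicates 1, 2 and 3, and 0, 0 and 0.117 CPM in the SVC replicates, where it had 3 counts in all. All adipocyte libraries stood far above all SVC libraries, and replicate 2 stood far above the other adipocyte libraries. Summed over libraries and scaled by their adjusted sizes, its counts were 5776 times higher in adipocytes (exact 95% counting interval 1976 to 28014). The fitted log2 difference was 12.36 (SE 1.76, adjusted p = 0.00012, edgeR), higher in 3 of 3 libraries. It was 10.19 without IAT adipocyte replicate 2 and 15.34 without SVC replicate 3, which held its only SVC counts, so that the latter depends on the prior count and is no bound. In EAT it had 487, 0 and 1496 counts in the adipocyte replicates and 15, 3 and 0 in the SVC replicates, a log2 difference of 6.98 (SE 1.94) and of 7.58 without adipocyte replicate 2, and the interaction did not pass (adjusted p = 0.443, edgeR). Its level was thus uneven among adipocyte libraries of both depots.

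The most abundant of the genes at least 4-fold higher in adipocytes was uc009vey.1, with 1 transcript of 1612 bases. It had 41015, 25499 and 40270 TPM in the adipocyte replicates and 9197, 9557 and 8812 TPM in the SVC replicates. The groups did not overlap, and adipocyte replicate 2 was again the library apart, here below the others. Its log2 difference was 2.54 (SE 0.21, adjusted p = 2.58e-06, edgeR), higher in 3 of 3 libraries, and 2.41 to 2.76 with any 1 library left out. In EAT the log2 difference was 1.47 (SE 0.19, adjusted p = 0.000792).

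On the SVC side the largest difference within these limits belonged to uc007rcz.1, a gene with 3 transcripts and a mean length of 4966 bases. Larger SVC differences, such as the 7 of at least 64-fold, were those of genes outside these limits. It had 0.392, 0.320 and 0.891 CPM in the adipocyte replicates and 17.5, 17.8 and 21.1 CPM in the SVC replicates. Every SVC library stood above every adipocyte library, where 32 counts were seen in all. The log2 difference was -5.11 (SE 0.25, adjusted p = 7.48e-08, edgeR) and -3.77 (SE 0.64) in EAT, and the interaction did not pass (adjusted p = 0.216, edgeR). The summed adipocyte counts gave a level of 0.0287 of that in SVCs, with an exact 95% counting interval of 0.0196 to 0.0407.

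The most abundant of the genes at least 4-fold higher in SVCs was uc009iuq.3, with 1 transcript of 640 bases. It had 16088, 15632 and 28738 TPM in the SVC replicates and 916, 977 and 789 TPM in the adipocyte replicates. SVC replicate 3 was the highest, and the adipocyte libraries stood close together and below all SVC libraries. The log2 difference was -3.90 (SE 0.25, adjusted p = 4.64e-07, edgeR), and it was -3.54 without SVC replicate 3. In EAT it was -3.57 (SE 0.56, edgeR adjusted p = 0.0018), which is smaller than in IAT, but -4.28 and larger than in IAT without EAT adipocyte replicate 2. That library had 338 CPM against 117 and 118 CPM in its replicates. The depot by fraction interaction of uc009iuq.3 did not pass (adjusted p = 0.633, edgeR). Its adipocyte level of 894 TPM ± 96.1 (SD, n = 3) was still above the median gene tested, at 14.3 TPM. These counting intervals cover counting error only.

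**Figure D5:**
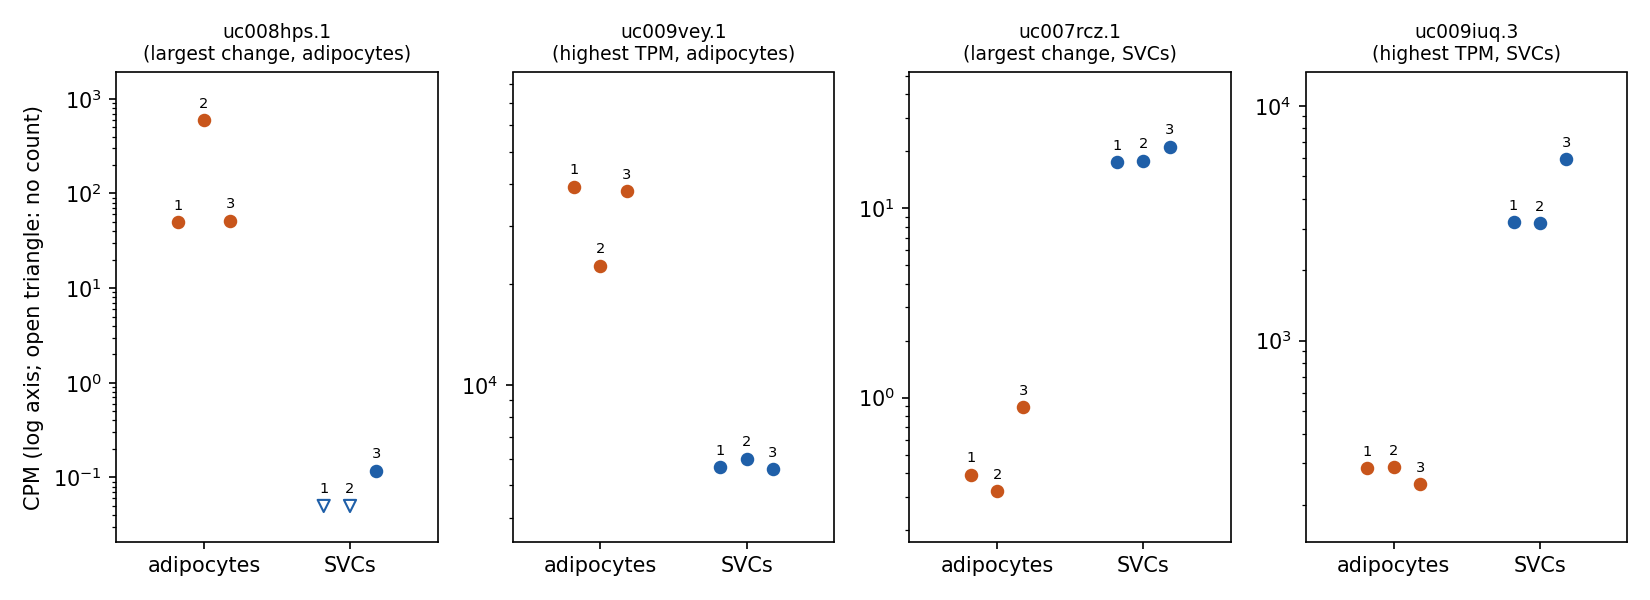
Levels (CPM, log axis, a different range in each panel) of the 4 singled-out genes in the 3 IAT adipocyte libraries (orange) and the 3 IAT SVC libraries (blue), with the replicate number above each point and open triangles for libraries with no count. Fractions do not overlap in any panel, and adipocyte replicate 2 lies apart in the first panel (594 CPM) and the second.

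Values of genes with near-identical copies or overlapping neighbours are uncertain, and no source used here gives the strand setting of the counting. Of 15162 genes tested, 35 had exactly the counts of another gene in all 12 libraries, 19 of them at least 4-fold apart between the IAT fractions. None of the 4 singled-out genes was among them.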

How the data were processed

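RNA-seq libraries of 4 groups (adipocytes and SVCs of EAT and IAT, 3 each) were grouped by sample title, which also gave the replicate numbers. The authors deposited RSEM expected counts, TPM, FPKM, length and effective length per gene, per the file headers; the deposited FPKM values were not used, and the deposited TPM values served to compare levels between genes. Per the submitters' processing notes, the tools were Bowtie2 2.2.6, RSEM 1.2.25 and limma, with the builds GRCm38 and mm10. The UCSC identifiers match no table used here, so the marker and pathway lists could not be used, nor sequences printed.

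Expected counts were rounded, filtered with filterByExpr (15162 of 32182 genes, at least 99.9% of each library's counts), scaled by TMM and fitted to the 6 IAT libraries (4 residual degrees of freedom) with edgeR 4.0.16 in R 4.3.3. EAT was fitted alike and apart, and CPM values were scaled within each depot. Transcript lengths were tested on the log2 scale with limma 3.58.1. Standard errors are the log2 difference over the square root of F. Floors are 3 counts, and intervals are exact binomial at 95%. The genes given by identifier were, in each direction, that with the largest change and that with the highest TPM among genes at least 4-fold apart, of at least 10 CPM and without overlap. The comparison, its lists and tests were chosen with earlier results of these data known.

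Deviations from the group means of IAT adipocytes and SVCs of the same number correlated at 0.297, 0.235 and 0.314, each above 0.1. Those of unlike number correlated at -0.312 to -0.0247. The numbers may therefore pair the samples, judged from the data alone. Deviations from a mean of 3 libraries depend on one another, so these values cannot settle it. For transcript length the correlations of the same number were 0.018, -0.04 and 0.019. The scripts were tested on simulated data. For counts, 78% of genes set 2-fold apart and 97% of those set 4-fold apart were recovered, and 7.41% of calls were false. For transcript length, 84% of genes set 1.2-fold apart were recovered, and 6.15% of calls were false. Few genes were changed there, whereas 78.6% passed in these data, so the simulation does not test the scaling in this setting. Alternatives were other scalings (DESeq2's size factors, library size), limma-voom, DESeq2 1.42.0, all genes unfiltered, all 12 libraries in 1 fit, the replicate block, an effective length offset, other thresholds and leaving out each library. Lists chosen in EAT for remainders and for depot comparison, and EAT transcript lengths, were added after seeing the data.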

Additional observations from a re-analysis of the deposited data

Results flagged for a closer look

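The gene uc009vey.1 was the most abundant of the singled-out genes at least 4-fold higher in IAT adipocytes. Its fraction difference was larger in IAT than in EAT by 0.89 in log2 (SE 0.29, depot by fraction interaction, edgeR adjusted p = 0.048). Its CPM was 39211, 22786 and 38066 in IAT adipocytes against 5660, 6001 and 5591 in IAT SVCs, and 12819, 16927 and 16686 in EAT adipocytes against 5509, 5356 and 5921 in EAT SVCs, each depot scaled apart. It is 1 of 4 genes looked at this way, and the adjusted p lies close to the threshold.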

How the results depend on the processing

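The 4 counts of genes apart between the IAT fractions stayed within 1.5 times under every alternative run, the replicate block included (6185 and 6231 genes, 5969 and 5926 of them among those called without it). The block ended no call of the 4 singled-out genes. DESeq2 gave no adjusted p for uc008hps.1. Genes seen in 1 fraction only were 24 and 2 at 0.5 CPM and 28 and 7 with up to 1 count allowed. They ranged over 15 to 24 and 1 to 5 with a library left out. All of these settings loosen the rule, so such counts could not fall. With 2-fold lists from EAT, the adipocyte list took 42.1% of adipocyte and 9.24% of SVC counts, and the SVC list 6.53% and 25.8%. With a library left out, the adipocyte list took 16.7% to 20.5% and 0.788% to 1.83%, and the SVC list 1.67% to 2.10% of adipocyte counts. In EAT, 2-fold IAT lists gave 2618 adipocyte genes called the same way and 36 the opposite way, and 2478 and 27 SVC genes. The SVC genes called the opposite way were 0 to 2 with a library left out. The interaction ranged over 854 to 2606 and 1071 to 3270 genes. For transcript length, the replicate block gave 25 and 26 genes, and 8 and 14 at 1.1-fold. A library left out gave 77 to 166 and 141 to 197 genes, and 14 to 23 and 53 to 68 at 1.1-fold. A minimum of 200 counts gave 23 genes at least 1.1-fold longer in adipocytes. Effective length gave 327 genes longer in adipocytes and 232 longer in SVCs, so that the majority turned, and 47 and 104 at 1.1-fold. The median length of genes at least 4-fold apart was 2062 bases for adipocytes and 2786 bases for SVCs. Where not shown by fewer genes or samples, the cause was not tested. Depth limits calls of absence to about the floor of 3 counts per library.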
